A study of Mus musculus with 8 samples.

Results

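The genes described here encode the machinery that carries proteins and RNA between nucleus and cytoplasm in the mouse 2-cell embryo. They are the nucleoporins, which build the nuclear pore complex, the importins and exportins, which ferry cargo through it, and the genes of the Ran cycle, which gives transport its direction. They were chosen by name from a list of 54 genes. No measured value entered that choice, but earlier results of these data were known. Of these, 48 were measured, out of 30700 genes on the array. A gene counted as measured when at least 1 transcript cluster (the array's probe set for 1 transcribed locus) was annotated to that gene alone, and of several clusters the one with the highest mean over the 8 arrays was used. Nup35 and Tpr were matched to no cluster in the annotation used here, and Nup62, Nup214, Ipo7 and Ipo11 lay only on clusters annotated to other genes as well. All genes measured were kept, so none had to pass a filter on low values.

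The embryos came from a study of COPS3, a subunit of the COP9 signalosome, in which zygotes of B6C3F1 x CD1 matings received injections into the ooplasm at the pronuclear stage. In the full treatment (2 pools), zygotes received Trim21 mRNA and an antibody against COPS3. TRIM21, a ubiquitin ligase, recognises antibodies inside the cell and sends them, together with the protein they hold, to destruction, which is the basis of the Trim-Away method. The other groups, of 2 pools each, received the anti-COPS3 antibody alone or Trim21 mRNA alone, or were non-manipulated embryos left in the incubator. Each pool held 100 embryos, of Theiler stage 2 and 1 day post coitum by the labels. Pools were lysed after 28 h of culture by the protocols, while the age label gives a shorter time in culture. The labels describe normal division to the 2-cell stage in the Trim21 mRNA and non-manipulated groups, but a stunted one, with many zygotes undivided, in both antibody groups. No group received a control antibody. Both pools of a group came from a single day and each group had a day of its own within 1 week, so group and day cannot be told apart, and p-values measure only the spread between pools of the same day.

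A nuclear pore complex is assembled from rings of scaffold proteins anchored in the nuclear envelope, with flexible filaments that line the channel and reach into cytoplasm and nucleus. Importins bind cargo in the cytoplasm and release it when the GTPase Ran, loaded with GTP by RCC1 at the chromatin, binds them in the nucleus. Exportins take up cargo together with Ran-GTP and release it in the cytoplasm, where RANGAP1 triggers GTP hydrolysis. In the early mouse embryo these proteins and transcripts are first supplied by the egg and are later made from the embryo's own genome, which becomes active in earnest at the 2-cell stage. KPNA7 is an importin alpha known for its presence in eggs and early embryos.

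The promoters of 4 genes are shown because these genes carried the clearest differences below: Kpna7 was higher, and Kpna2, Nup107 and Nup133 were lower, wherever the antibody was injected. For Kpna2 the difference with antibody alone was small, at −0.63 against non-manipulated embryos. Each sequence is the RefSeq sequence on GRCm38.p6 from 250 bases before to 50 bases after the annotated start, read 5′ to 3′ along the gene, and all 4 genes lie on the minus strand. The windows are chr5:145009587-145009886 for Kpna7, chr11:106999476-106999775 for Kpna2, chr10:117792656-117792955 for Nup107 and chr8:123949216-123949515 for Nup133. Capitals mark every match, on either strand, to 6 motifs, and no marked matches share bases in these windows. The motifs were CCGGAAG for ETS factors, CGCATGCG for NRF1, the E-box CACGTG, the CCAAT box by its own letters, GGGCGG for the so-called GC boxes, and TATAAA, a core element of some promoters counted below under its usual name.
Kpna7: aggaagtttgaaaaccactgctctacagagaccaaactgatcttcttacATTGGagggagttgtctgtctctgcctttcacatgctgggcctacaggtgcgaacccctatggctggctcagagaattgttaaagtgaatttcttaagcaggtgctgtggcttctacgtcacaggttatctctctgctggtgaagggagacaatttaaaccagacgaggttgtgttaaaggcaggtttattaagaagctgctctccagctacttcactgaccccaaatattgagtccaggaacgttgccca
Kpna2: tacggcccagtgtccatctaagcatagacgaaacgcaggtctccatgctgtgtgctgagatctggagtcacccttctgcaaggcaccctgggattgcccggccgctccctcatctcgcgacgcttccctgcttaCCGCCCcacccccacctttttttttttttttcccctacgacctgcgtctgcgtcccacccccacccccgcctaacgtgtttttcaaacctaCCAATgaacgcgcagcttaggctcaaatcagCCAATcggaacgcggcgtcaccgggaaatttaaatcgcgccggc
Nup107: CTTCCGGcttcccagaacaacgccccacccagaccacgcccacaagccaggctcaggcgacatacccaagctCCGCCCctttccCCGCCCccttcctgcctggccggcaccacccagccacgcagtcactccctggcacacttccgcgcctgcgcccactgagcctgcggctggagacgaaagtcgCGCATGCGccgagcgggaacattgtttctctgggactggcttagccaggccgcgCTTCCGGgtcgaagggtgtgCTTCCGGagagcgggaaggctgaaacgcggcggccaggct
Nup133: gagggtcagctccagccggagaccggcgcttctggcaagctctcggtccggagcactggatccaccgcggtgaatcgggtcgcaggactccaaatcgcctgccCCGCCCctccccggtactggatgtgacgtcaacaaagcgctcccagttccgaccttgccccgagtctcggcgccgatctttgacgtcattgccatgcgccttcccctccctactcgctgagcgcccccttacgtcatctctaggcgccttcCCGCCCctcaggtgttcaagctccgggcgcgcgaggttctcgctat
The Kpna7 window held 4 CG dinucleotides and a single CCAAT box, written ATTGG on the strand shown. The Kpna2 window held 24 CG dinucleotides, 2 CCAAT boxes and 1 GC box. The Nup107 window held 27 CG dinucleotides, 3 ETS motifs, 1 NRF1 motif and 2 GC boxes, and the Nup133 window held 31 CG dinucleotides and 2 GC boxes. Across the 46 RefSeq windows found for 39 of the listed genes, the median was 27.5 CG dinucleotides, against 7 over all 32851 windows of the same 300 bases. GC boxes were in 69.6% of the transport windows and 35.7% of all windows, ETS motifs in 21.7% and 8.9%, E-boxes in 17.4% and 7.2%, and NRF1 motifs in 8.7% and 1.9%. CCAAT boxes were in 43.5% and 37.4%, and TATA boxes in 8.7% and 13.6%. The single Kpna7 window lay below the median of all windows. Windows with 0 and 3 CG dinucleotides belonged to Ipo5 and Nup93, each of which had another window, with 47 and 28. A match describes these letters only.

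All values below are the deposited log2 signal of a transcript cluster, and a difference of 1 on this scale is a 2-fold change. A gene was called when limma's moderated test over all 30700 genes gave a Benjamini-Hochberg adjusted p under 0.05 (two-sided). Array medians lay between 4.75 and 5.29. The standard deviation of the log2 values over all clusters was 2.38 and 2.27 in full-treatment pools and 2.45 and 2.60 with antibody alone. It was 2.66 in both Trim21 mRNA pools and 2.71 in both non-manipulated pools. The part of this narrower range in the results below was not tested. The pools of a group correlated at 0.986 in the full treatment, 0.956 with antibody alone, 0.996 with Trim21 mRNA and 0.998 in non-manipulated embryos. The antibody-alone pools therefore stood apart from each other: 7 of the 48 transport genes (14.6%) differed more than 2-fold between them, as did 15.0% of all genes, and no transport gene did so in another group. The 6 markers of the 2-cell embryo had mean levels of 11.39 and 11.43 in full-treatment pools, 9.99 and 10.75 with antibody alone, 9.61 and 9.90 with Trim21 mRNA, and 9.71 and 9.49 in non-manipulated pools. The 6 oocyte markers averaged 12.84 and 12.56 in full-treatment pools, 12.96 and 13.44 with antibody alone, 12.03 and 11.81 with Trim21 mRNA, and 12.43 and 12.42 in non-manipulated pools. Of the 2-cell markers 5 were called higher in the full treatment than with Trim21 mRNA, and of the oocyte markers 3 were higher and 1 lower. Markers of cumulus, sperm and blood cells averaged between 4.79 and 5.33 on every array, near the array medians, and those of oviduct epithelium between 5.57 and 6.48. Single markers stood apart on single arrays. Inha, of granulosa cells, had 5.90 and 7.67 with antibody alone and 6.30 and 10.32 in non-manipulated pools, and Krt18, of epithelia, had 8.17 and 5.78 with antibody alone and 5.27 and 5.39 in non-manipulated pools. The part of any of these markers in the results below was not tested.

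The full treatment set against Trim21 mRNA asks what the antibody does in embryos that hold extra TRIM21. Of the 48 transport genes, 25 fell and 3 rose, where 23.2% of all genes were called (14.5% lower and 8.72% higher). Their median difference was −1.21, against 0.21 over all genes. Of all genes, 16712 had a mean level of 4 to 6, with a median difference of 0.31, and the median fell with level, as given further on. The full-treatment pools lay below both Trim21 mRNA pools for 32 of the 48 genes and above both for 10, where 26.5% and 50.3% of all genes did so. By role, 10 of 22 nucleoporins fell, 11 of 22 transport receptors fell and 3 rose, and all 4 Ran cycle genes fell. In pooled embryos, fewer cells that hold a transcript and less of it in each cell cannot be told apart.

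**Figure D1:**
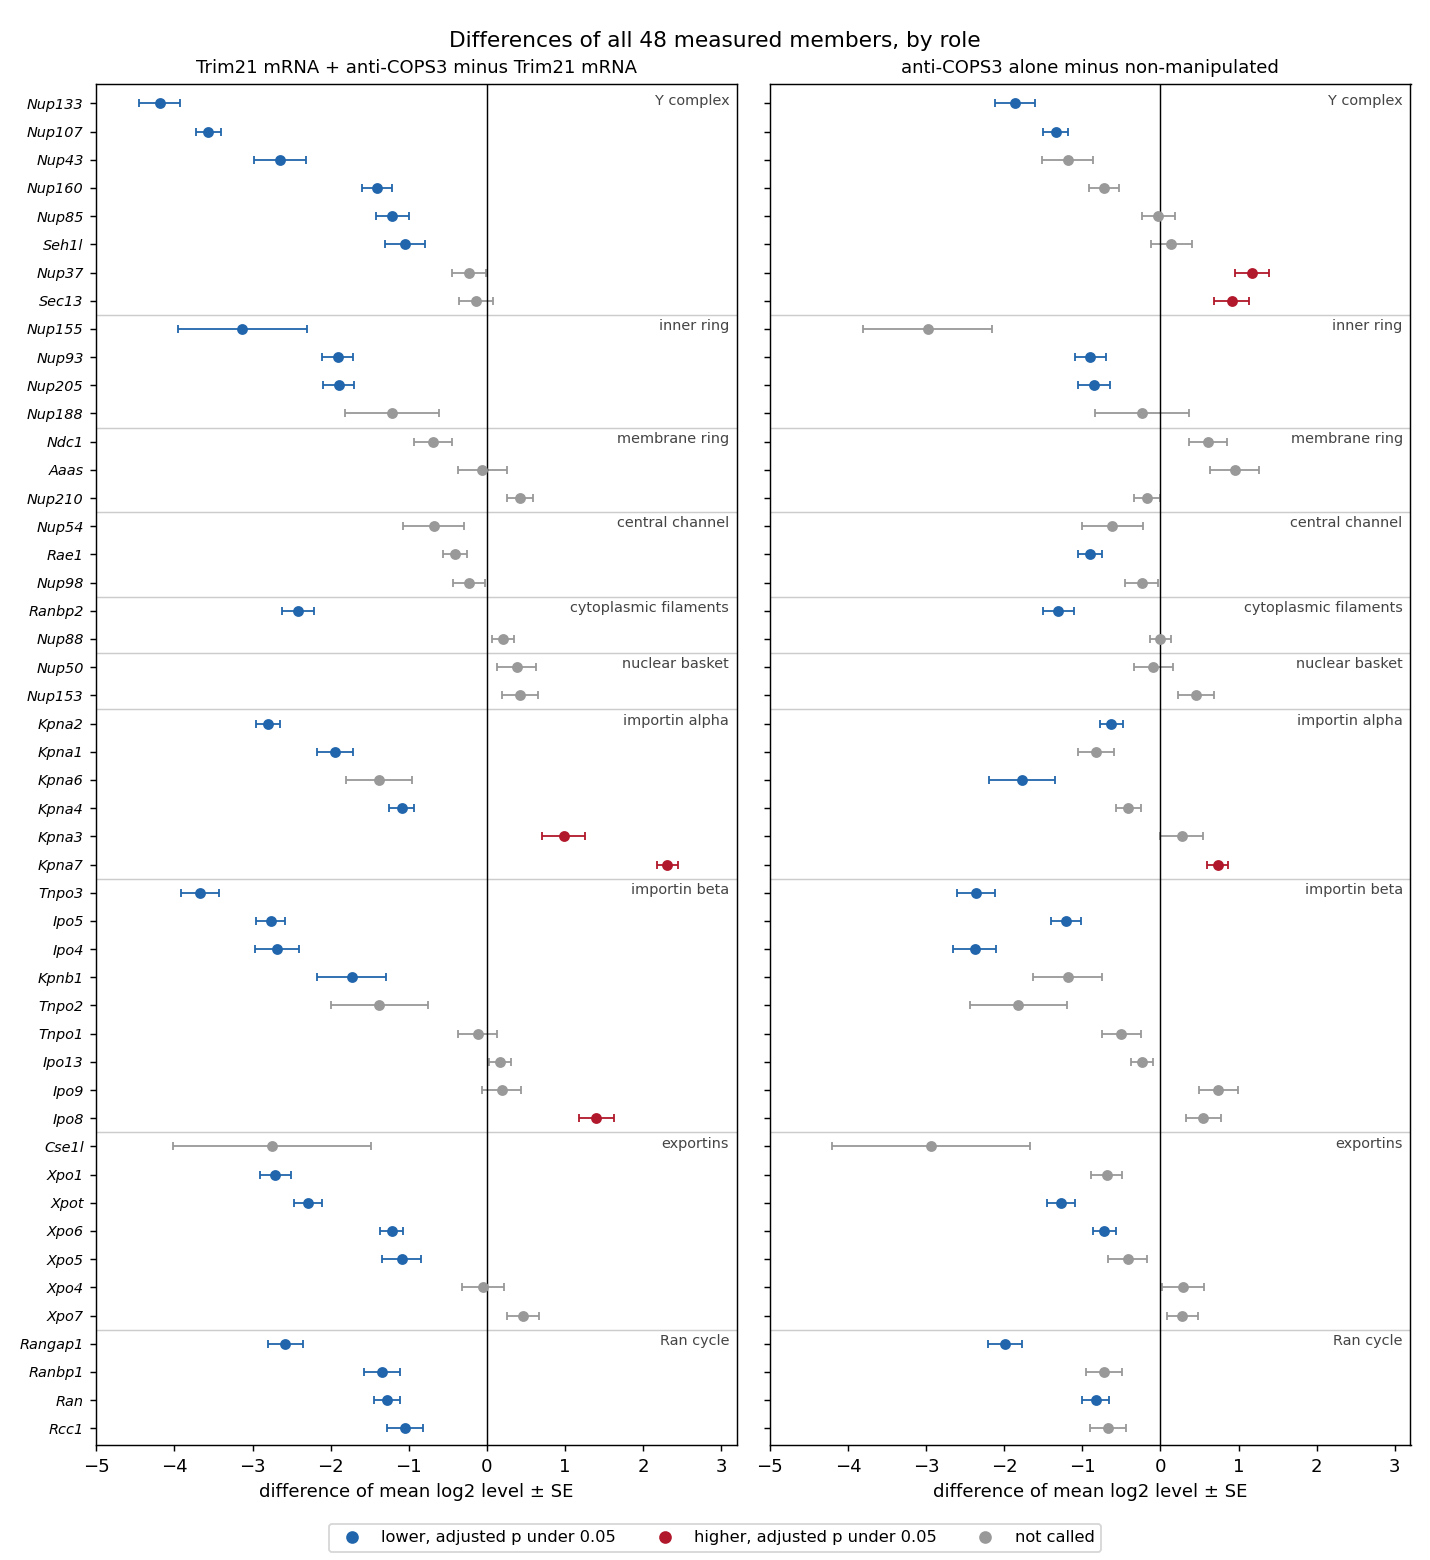
Difference of mean log2 level, with its standard error as the bar, for each of the 48 measured genes, grouped by role; the left panel shows the full treatment minus Trim21 mRNA and the right panel antibody alone minus non-manipulated. Blue points are called lower, red points higher and grey points were not called; Nup133 at −4.19 and Kpna7 at 2.31 mark the ends of the left panel.

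Nup107 and Nup133, neighbours in the stalk of the Y complex that forms the outer scaffold rings, showed the deepest losses among nucleoporins. Nup107 (chr10:117750621-117792736) had log2 levels of 6.84 and 6.83 in full-treatment pools, 9.56 and 9.70 in antibody-alone pools, 10.56 and 10.25 in Trim21 mRNA pools, and 11.00 and 10.94 in non-manipulated pools. Nup133 (chr8:123897114-123949265) had 7.64 and 7.29 in the full treatment, 10.12 and 9.39 with antibody alone, 11.74 and 11.57 with Trim21 mRNA, and 11.56 and 11.68 in non-manipulated embryos. For both genes the full-treatment pools were the lowest, the antibody-alone pools lay between, and no pool of an antibody group reached a pool without antibody. Against Trim21 mRNA, Nup107 fell by 3.57 (SE 0.16, limma adjusted p = 6.5e-05), an 11.9-fold lower level, and Nup133 fell by 4.19 (SE 0.26, limma adjusted p = 0.00011), an 18.3-fold lower level.

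The rest of the Y complex was uneven. Nup43 fell by 2.65 (SE 0.33), Nup160 by 1.41 (SE 0.19), Nup85 by 1.21 (SE 0.21) and Seh1l by 1.05 (SE 0.26), with limma adjusted p-values of 0.0015, 0.0025, 0.0075 and 0.027. Nup37 and Sec13 were not called, at −0.23 (95% interval −0.74 to 0.29) and −0.14 (−0.66 to 0.37). SEC13 also works in the COPII coat of vesicles leaving the endoplasmic reticulum, and SEH1L in a complex at the lysosome. So 6 of the 8 Y-complex genes fell, over a range from −1.05 to −4.19. Of all genes 14.5% fell, with 39.1% at levels of 8 to 10 and 45.8% at 10 to 12.

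In the inner ring, the scaffold layer that holds the channel, Nup93 fell by 1.91 (SE 0.20, limma adjusted p = 0.00076) and Nup205 by 1.90 (SE 0.20, limma adjusted p = 0.0008). Nup93 had 7.63 and 7.50 in the full treatment, 8.83 and 9.31 with antibody alone, 9.59 and 9.36 with Trim21 mRNA, and 9.95 and 9.99 in non-manipulated pools, and the full-treatment pools overlapped no other group. Nup155, which links the inner ring to the membrane, had 6.86 and 6.88 in the full treatment, 5.88 and 8.88 with antibody alone, 10.09 and 9.91 with Trim21 mRNA, and 10.44 and 10.29 in non-manipulated pools. The wide split between its antibody-alone pools enters the shared estimate of spread, so its difference of −3.13 carried an SE of 0.83 and a limma adjusted p of 0.036. Nup188, a paralogue of Nup205, was not called at −1.22 (95% interval −2.63 to 0.20), and its antibody-alone pools were split too, at 10.02 and 7.90.

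Of the membrane ring (3 genes), the central channel (3), the cytoplasmic filaments (2) and the nuclear basket (2), Ranbp2 alone was called in this comparison. Among the other 9 genes, limma gave an unadjusted p under 0.05 for 3, namely Ndc1, Rae1 and Nup210. Ranbp2, a giant filament protein that anchors RANGAP1 at the pore, had 9.45 and 9.28 in the full treatment, 10.43 and 10.87 with antibody alone, 11.91 and 11.67 with Trim21 mRNA, and 11.90 and 12.03 in non-manipulated pools. Its full-treatment pools were lowest and apart from all others, and it fell by 2.42 (SE 0.20, limma adjusted p = 0.00027). Ndc1, a transmembrane anchor of the pore, had 9.70 and 9.48 in the full treatment, 12.01 and 11.35 with antibody alone, 10.41 and 10.14 with Trim21 mRNA, and 11.12 and 11.03 in non-manipulated pools. Its difference was −0.69 (95% interval −1.27 to −0.10, limma adjusted p = 0.088). Rae1, an mRNA export factor that docks on NUP98, had 10.70 and 10.69 in the full treatment, 10.29 and 10.05 with antibody alone, 11.05 and 11.15 with Trim21 mRNA, and 11.06 and 11.09 in non-manipulated pools. Its difference was −0.41 (95% interval −0.77 to −0.04, limma adjusted p = 0.1). For Ndc1 and Rae1 the full-treatment pools lay below the Trim21 mRNA pools without overlap, and neither gene was called.

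No loss was called in the nuclear basket. Nup153, which docks import complexes at the nuclear face, had 13.10 and 12.82 in the full treatment, 13.48 and 12.85 with antibody alone, 12.55 and 12.54 with Trim21 mRNA, and 12.65 and 12.76 in non-manipulated pools. Nup50, a cofactor that helps release import cargo, had 13.39 and 13.11 in the full treatment, 12.65 and 13.36 with antibody alone, 12.95 and 12.80 with Trim21 mRNA, and 13.15 and 13.04 in non-manipulated pools. Against Trim21 mRNA both were higher in each full-treatment pool, at 0.42 (95% interval −0.14 to 0.97) for Nup153 and 0.38 (−0.22 to 0.97) for Nup50, and neither was called on the deposited scale. Nup98, at −0.23 (−0.72 to 0.27), Nup54, at −0.68 (−1.62 to 0.25), Aaas, at −0.06 (−0.79 to 0.67), and Nup88, at 0.20 (−0.13 to 0.52), were not called either.

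**Figure D2:**
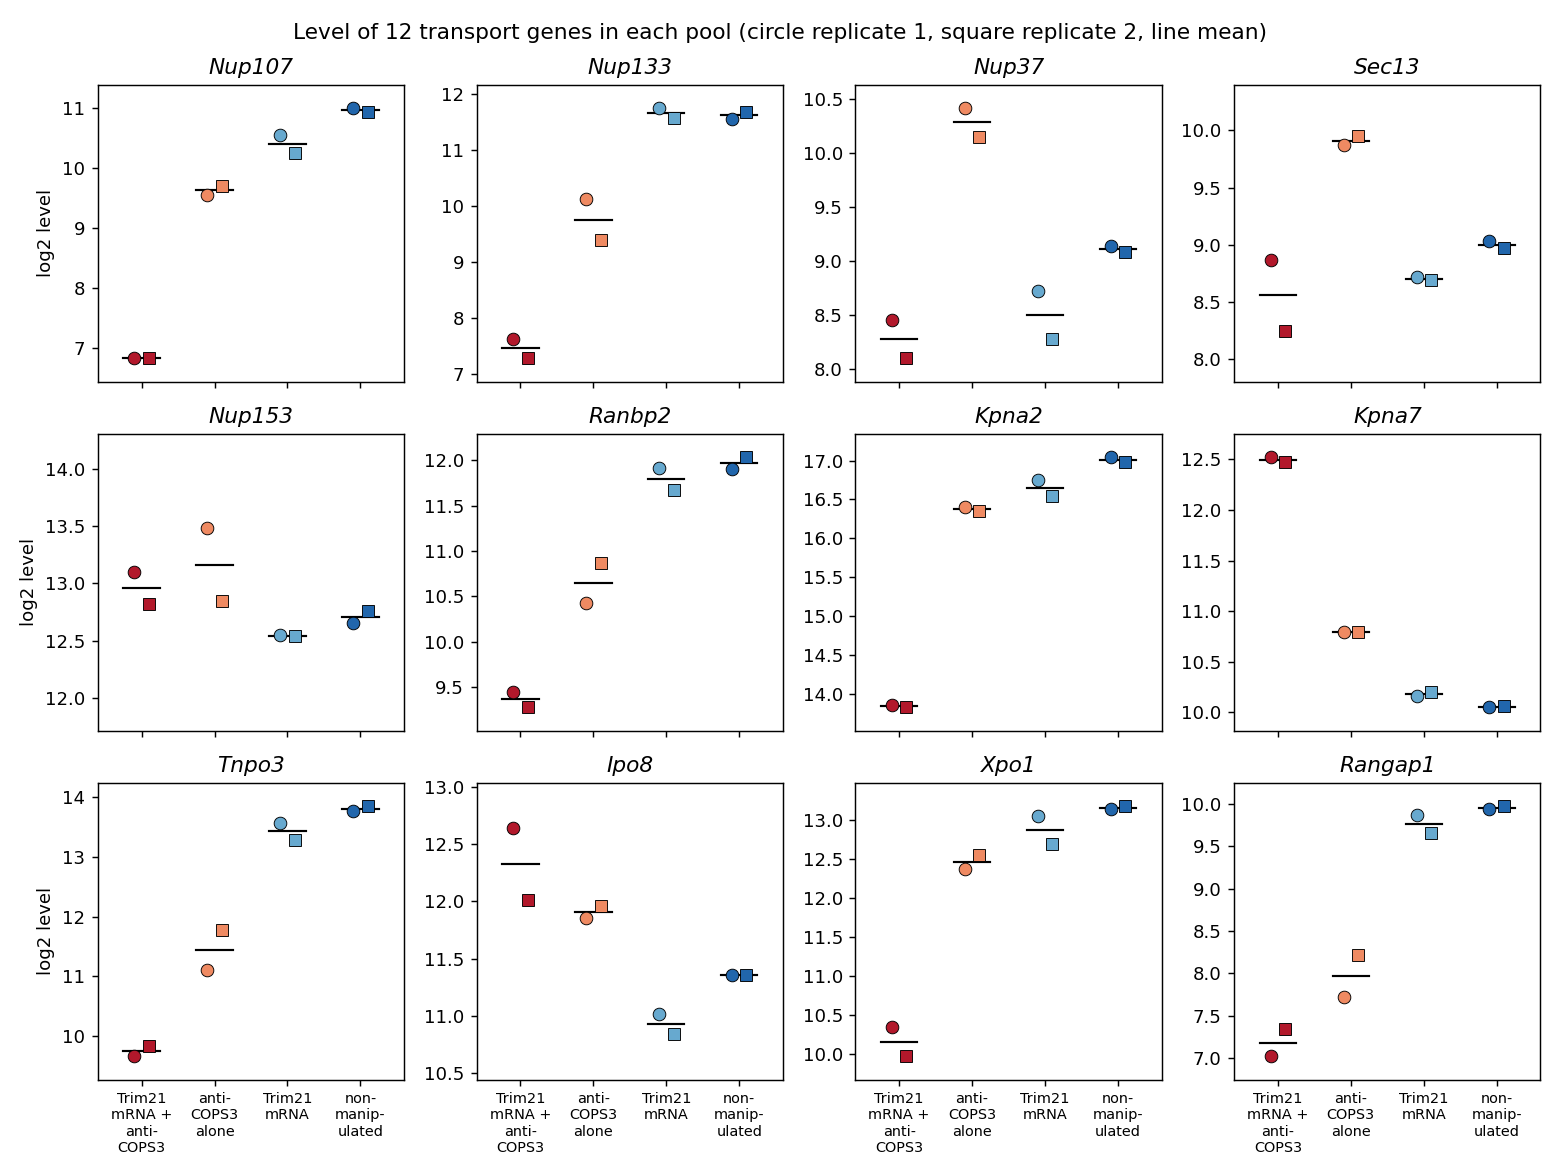
Deposited log2 level (vertical axis, its own range in each panel) of 12 transport genes in every pool, with the full treatment at the left and non-manipulated embryos at the right; circles and squares are replicates 1 and 2 and the line is their mean. Nup107, Nup133, Ranbp2, Kpna2, Tnpo3, Xpo1 and Rangap1 are lowest in the full treatment, Kpna7 is highest there, and Nup37 and Sec13 are highest with antibody alone.

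Among the importin alpha genes, the adaptors that recognise the classical nuclear localisation signal, Kpna2 and Kpna7 moved in opposite directions. Kpna2 had 13.86 and 13.83 in the full treatment, 16.40 and 16.35 with antibody alone, 16.75 and 16.55 with Trim21 mRNA, and 17.04 and 16.98 in non-manipulated pools. Kpna7 (chr5:144983727-145009636) had 12.52 and 12.47 in the full treatment, 10.79 and 10.79 with antibody alone, 10.16 and 10.20 with Trim21 mRNA, and 10.05 and 10.06 in non-manipulated pools. The 4 groups did not overlap for either gene, and both antibody groups lay on the same side of both groups without antibody. Against Trim21 mRNA, Kpna2 fell by 2.80 (SE 0.15, limma adjusted p = 7.2e-05) and Kpna7 rose by 2.31 (SE 0.14, limma adjusted p = 9.5e-05), a 4.98-fold higher level. Kpna2 lay on 3 clusters, whose IDs begin with TC03, TC11 and TC17, and RefSeq places the gene on chromosome 11. The cluster with the highest mean, used here, begins with TC03, and the 3 clusters gave −2.80, −2.25 and −2.75, so which copy was measured is uncertain.

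Of the other importin alpha genes, Kpna1 fell by 1.95 (SE 0.23, limma adjusted p = 0.0013) and Kpna4 by 1.09 (SE 0.16, limma adjusted p = 0.003). Kpna6 had 9.68 and 9.14 in the full treatment, 8.20 and 9.54 with antibody alone, 10.80 and 10.78 with Trim21 mRNA, and 10.73 and 10.56 in non-manipulated pools. Both antibody groups were below both groups without antibody, yet Kpna6 was not called at −1.38 (95% interval −2.37 to −0.39, limma adjusted p = 0.055). Kpna3 rose by 0.98 (SE 0.28, limma adjusted p = 0.049), with 14.18 and 13.75 in full-treatment pools, against 13.02 and 12.95 with Trim21 mRNA. Kpna3 lost its call when any 1 array of the full treatment, Trim21 mRNA or non-manipulated group was left out, with limma adjusted p-values from 0.081 to 0.2.

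In the importin beta family, the receptors that pass through the pore, 4 of 9 genes fell and 1 rose. Of all genes 14.5% fell and 8.72% rose, and 45.8% fell at levels of 10 to 12. The family's share of 44.4% lower is near the share at that level. Kpnb1, the partner of importin alpha, had 10.99 and 10.40 in the full treatment, 10.39 and 11.78 with antibody alone, 12.56 and 12.29 with Trim21 mRNA, and 12.26 and 12.29 in non-manipulated pools. All pools with antibody were below all pools without it, and Kpnb1 fell by 1.73 (SE 0.44, limma adjusted p = 0.03), a call lost without any 1 array of the full treatment, Trim21 mRNA or non-manipulated group (limma adjusted p from 0.062 to 0.16). Tnpo3, which imports splicing factors rich in serine and arginine, had 9.67 and 9.84 in the full treatment, 11.11 and 11.77 with antibody alone, 13.57 and 13.28 with Trim21 mRNA, and 13.76 and 13.84 in non-manipulated pools. It fell by 3.67 (SE 0.24, limma adjusted p = 0.00013), and no full-treatment pool reached another group. Ipo5, an importer of ribosomal proteins and histones, fell by 2.77 (SE 0.19, limma adjusted p = 0.00014), and Ipo4, which carries histones, fell by 2.69 (SE 0.28, limma adjusted p = 0.0007).

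Ipo8, which in human cells imports Argonaute proteins and SMADs, went the other way. It had 12.64 and 12.01 in the full treatment, 11.86 and 11.96 with antibody alone, 11.02 and 10.84 with Trim21 mRNA, and 11.36 and 11.36 in non-manipulated pools. Each full-treatment pool was above every pool of the other groups, and Ipo8 rose by 1.40 (SE 0.22, limma adjusted p = 0.0049). Tnpo2 (−1.38, 95% interval −2.85 to 0.09), Tnpo1 (−0.12, −0.72 to 0.48), Ipo9 (0.19, −0.40 to 0.77) and Ipo13 (0.17, −0.17 to 0.51) were not called.

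Of 7 exportins 4 fell, where 14.5% of all genes fell and 39.1% did at levels of 8 to 10. Xpo1, the main exportin for proteins with a leucine-rich export signal, led them. It had 10.34 and 9.97 in the full treatment, 12.37 and 12.56 with antibody alone, 13.05 and 12.69 with Trim21 mRNA, and 13.14 and 13.18 in non-manipulated pools. The full-treatment pools were far below the rest, and Xpo1 fell by 2.71 (SE 0.20, limma adjusted p = 0.00018). Xpot, the tRNA exporter, had 5.86 and 6.0 in the full treatment, 6.77 and 7.10 with antibody alone, 8.17 and 8.28 with Trim21 mRNA, and 8.30 and 8.12 in non-manipulated pools. Its full-treatment pools were the lowest without overlap, and it fell by 2.29 (SE 0.18, limma adjusted p = 0.00021), though these levels are close to the full-treatment array medians of 5.15 and 5.29, so that background signal limits the size of the fall. Xpo6, which exports actin, fell by 1.22 (SE 0.15), and Xpo5, which exports microRNA precursors, fell by 1.09 (SE 0.25), with limma adjusted p-values of 0.0018 and 0.021.

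Cse1l, which returns importin alpha to the cytoplasm, could not be read with any precision. It had 8.85 and 8.35 in the full treatment, 6.50 and 11.14 with antibody alone, 11.45 and 11.25 with Trim21 mRNA, and 11.77 and 11.76 in non-manipulated pools. The antibody-alone pools lay on either side of both full-treatment pools, and the difference of −2.75 against Trim21 mRNA had a 95% interval of −5.77 to 0.27. When either antibody-alone array was left out, more transport genes were called, among them Cse1l, Kpna6, Ndc1, Nup153 and Nup188. No share of all genes was set beside these fits, so the gain does not set transport genes apart. Xpo4 at −0.05 (−0.68 to 0.58) and Xpo7 at 0.46 (−0.02 to 0.95) were not called.

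Every gene of the Ran cycle fell. Of all genes 14.5% fell, with 20.9% at levels of 6 to 8, 39.1% at 8 to 10 and 45.8% at 10 to 12. Rangap1 (chr15:81704248-81730798) had 7.02 and 7.34 in the full treatment, 7.72 and 8.22 with antibody alone, 9.87 and 9.66 with Trim21 mRNA, and 9.94 and 9.97 in non-manipulated pools. Ran had 8.15 and 8.22 in the full treatment, 8.45 and 8.75 with antibody alone, 9.59 and 9.34 with Trim21 mRNA, and 9.41 and 9.45 in non-manipulated pools. Rcc1 had 6.56 and 6.84 in the full treatment, 7.27 and 6.68 with antibody alone, 7.66 and 7.84 with Trim21 mRNA, and 7.75 and 7.54 in non-manipulated pools. For all 3, both antibody groups lay below both groups without antibody, while for Rcc1 the antibody groups overlapped each other. Rangap1 fell by 2.58 (SE 0.22, limma adjusted p = 0.0003), Ran by 1.28 (SE 0.17, limma adjusted p = 0.0023), Ranbp1, a helper of RANGAP1, by 1.34 (SE 0.23, limma adjusted p = 0.0059), and Rcc1 by 1.05 (SE 0.23, limma adjusted p = 0.019).

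Antibody alone was compared with non-manipulated embryos, which covers the antibody together with its injection, without added TRIM21. The non-manipulated embryos were not injected, so antibody and injection cannot be told apart here. These groups share no array with the comparison above, but the p-values of both rest on the same estimate of spread from all 8 arrays. Of the 48 genes, 15 fell and 3 rose, where 10.0% of all genes were called (7.29% lower and 2.76% higher), and the median difference was −0.65 against 0.18 over all genes. The antibody-alone pools lay below both non-manipulated pools for 30 of the 48 genes and above both for 9, where 21.5% and 39.6% of all genes did so. The called losses were led by Ipo4, Tnpo3, Rangap1 and Nup133. Ipo4 had 7.0 and 7.82 with antibody alone and 9.89 and 9.69 in non-manipulated pools, and fell by 2.38 (SE 0.28, limma adjusted p = 0.0059). Tnpo3 fell by 2.36 (SE 0.24, limma adjusted p = 0.0043), Rangap1 by 1.99 (SE 0.22, limma adjusted p = 0.0051) and Nup133 by 1.86 (SE 0.26, limma adjusted p = 0.0095). Nup107 fell by 1.34, Ranbp2 by 1.31, Xpot by 1.27 and Ipo5 by 1.21, with limma adjusted p-values of 0.0065, 0.012, 0.0087 and 0.013. The other genes that fell were Kpna6, Nup93, Rae1, Nup205, Ran, Xpo6 and Kpna2, with differences from −0.63 for Kpna2 to −1.77 for Kpna6. All of these other calls were lost after quantile normalization, where Kpna2 stood at −0.39. Xpo1, at −0.69 (95% interval −1.17 to −0.22), and Kpnb1, at −1.19 (−2.23 to −0.15), were lower in both antibody-alone pools and not called.

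The 3 genes that rose with antibody alone were Nup37, Sec13 and Kpna7. Nup37 had 8.45 and 8.10 in the full treatment, 10.41 and 10.15 with antibody alone, 8.72 and 8.28 with Trim21 mRNA, and 9.14 and 9.08 in non-manipulated pools. Sec13 had 8.87 and 8.25 in the full treatment, 9.87 and 9.95 with antibody alone, 8.72 and 8.69 with Trim21 mRNA, and 9.03 and 8.97 in non-manipulated pools. For both genes the antibody-alone pools were the highest of all, and the full-treatment pools overlapped those with Trim21 mRNA. Against non-manipulated embryos Nup37 rose by 1.17 (SE 0.22, limma adjusted p = 0.021), Sec13 by 0.91 (SE 0.22, limma adjusted p = 0.045) and Kpna7 by 0.73 (SE 0.14, limma adjusted p = 0.021). Aaas, a pore protein bound to NDC1, was likewise higher in both antibody-alone pools, with 10.70 and 9.70 there and 9.22 and 9.27 in non-manipulated pools, but was not called at 0.95 (95% interval 0.23 to 1.68).

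The calls of this comparison depended on which arrays entered the fit, while the differences of the leading genes kept their direction. None of the 18 was made without either non-manipulated array, when limma found 23 transport genes at an unadjusted p under 0.05. With only these 2 groups in the fit, both non-manipulated arrays included, none was called and 24 had an unadjusted p under 0.05. There were 9 calls without either Trim21 mRNA array and 34 without antibody-alone replicate 2. The share of all genes was not set beside the counts from these fits, so the counts do not set transport genes apart. Over the fits without 1 array, the difference stayed between −2.69 and −2.03 for Tnpo3, between −2.79 and −1.97 for Ipo4 and between −2.23 and −1.50 for Nup133.

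Trim21 mRNA set against non-manipulated embryos covers the injection and the extra TRIM21 without antibody. No transport gene was called by limma, 6 had an unadjusted p under 0.05, and only 0.00326% of all genes (1 gene) were called. The median difference was −0.17, against 0.04 over all genes. The ends of the range were Ndc1 at −0.80 (95% interval −1.38 to −0.22) and Xpo5 at 0.51 (−0.08 to 1.10), and Nup107, at −0.57 (−0.96 to −0.17), was lower in both Trim21 mRNA pools. Kpna7 differed by 0.12 (−0.20 to 0.45), Kpna2 by −0.36 (−0.71 to −0.01), Xpo1 by −0.29 (−0.77 to 0.19) and Nup133 by 0.04 (−0.59 to 0.66). With only these 2 groups in the fit, Ndc1, Xpo4 and Xpo5 were called. The share of all genes given above comes from the fit to all arrays. No share was set beside the smaller fit, so its calls do not set transport genes apart.

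The difference between the antibody's effects with and without Trim21 mRNA was tested as an interaction, in which 4.08% of all genes were called (3.46% lower and 0.625% higher). The effect without Trim21 mRNA is taken against uninjected embryos and so includes the injection. The effect with Trim21 mRNA compares injected groups only. It was called for 6 transport genes. The effect with Trim21 mRNA minus the effect without it was −2.33 for Nup133 (SE 0.37, limma adjusted p = 0.021), −2.23 for Nup107 (SE 0.23, limma adjusted p = 0.0061) and −2.17 for Kpna2 (SE 0.21, limma adjusted p = 0.0052). It was −2.02 for Xpo1 (SE 0.28, limma adjusted p = 0.015) and −1.56 for Ipo5 (SE 0.27, limma adjusted p = 0.027), so the loss of these 5 genes was deeper with Trim21 mRNA. For Kpna7 it was 1.58 (SE 0.19, limma adjusted p = 0.0091), so its rise was larger with Trim21 mRNA. The median over the 48 genes was −0.58, against 0.00 over all genes, and the share of all genes called lower grew with their level, as given by level further on. By contrast the interaction was −0.30 for Ipo4 (95% interval −1.24 to 0.63), −0.60 for Rangap1 (−1.33 to 0.13) and −0.45 for Ran (−1.03 to 0.13), none of them called. None of the 6 calls remained without either non-manipulated array, when the adjusted p-values of these genes ran from 0.055 for Kpna2 to 0.16 for Ipo5, and 2 remained without either Trim21 mRNA array, Nup107 and Kpna2. Over all 48 genes, fewer were called without full-treatment replicate 2 and more without either antibody-alone array, with no share of all genes set beside these fits.

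**Figure D3:**
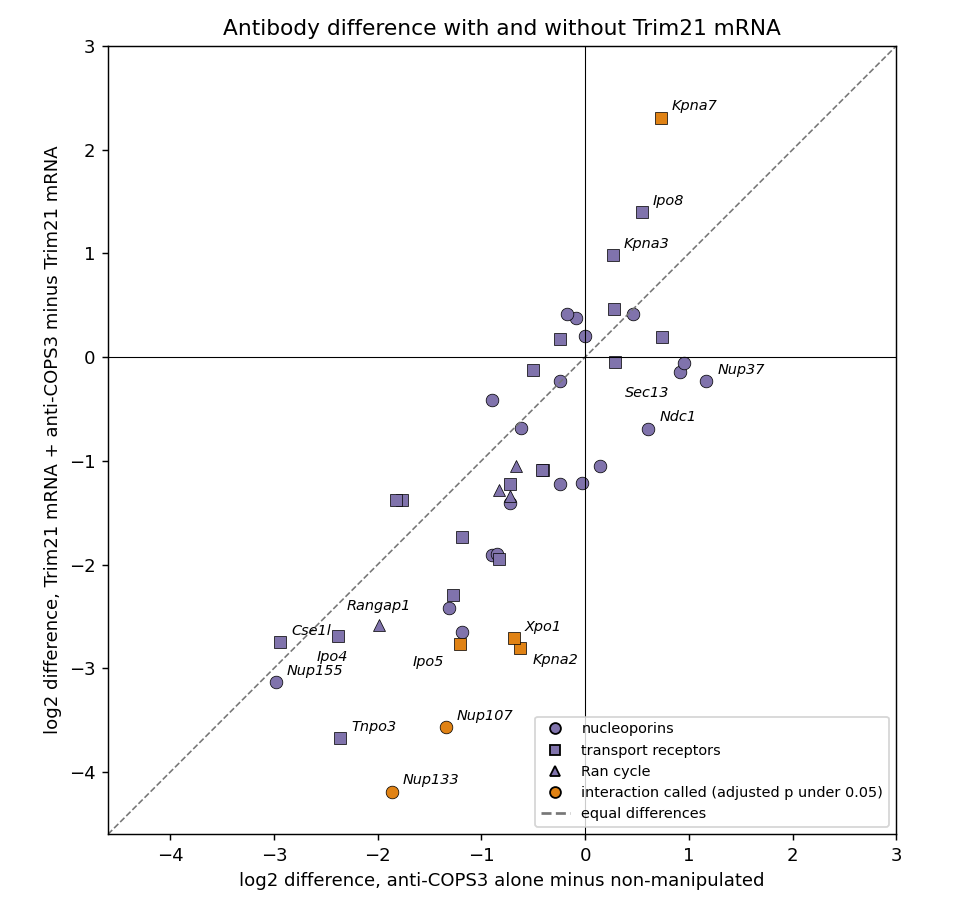
Each point is 1 of the 48 genes, with its log2 difference for antibody alone minus non-manipulated on the horizontal axis and for the full treatment minus Trim21 mRNA on the vertical axis; the dashed line marks equal differences. Orange points are the 6 genes with a called interaction, of which Nup133, Nup107, Kpna2, Xpo1 and Ipo5 lie below the line and Kpna7 above it.

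The full treatment set directly against antibody alone uses again the full-treatment arrays and the antibody-alone arrays of the comparisons above, and is no separate support. In it 17 of the 48 genes fell and 1 rose, where 14.9% of all genes were called (10.5% lower and 4.37% higher), and the median was −0.47 against 0.05 over all genes. Of the 8 Y-complex genes 7 were called lower, from Nup107 at −2.79 (SE 0.16, limma adjusted p = 0.00026) to Nup160 at −0.78 (SE 0.19, limma adjusted p = 0.039). Nup37 fell by 2.00 (SE 0.22, limma adjusted p = 0.0016), Sec13 fell by 1.35 (SE 0.22, limma adjusted p = 0.0075) and Ndc1 fell by 2.09 (SE 0.24, limma adjusted p = 0.0021), and none of these 3 was called against Trim21 mRNA. Kpna2 fell by 2.53 (SE 0.15) and Xpo1 fell by 2.31 (SE 0.20), with limma adjusted p-values of 0.00026 and 0.00077, and Kpna7 rose by 1.71 (SE 0.14, limma adjusted p = 0.00057). No Ran cycle gene was called by limma here, and 2 of the 4, Ran and Rangap1, had an unadjusted p under 0.05. There were more calls without either antibody-alone array, with no share of all genes set beside them.

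Against non-manipulated embryos, 26 of the 48 genes fell in the full treatment and 2 rose, Kpna7 by 2.44 (SE 0.14, limma adjusted p = 7.8e-05) and Ipo8 by 0.97 (SE 0.22, limma adjusted p = 0.019). Of all genes 31.7% were called (16.6% lower and 15.1% higher), and the medians were −1.24 for the transport genes and 0.24 for all genes. The full-treatment pools lay below both non-manipulated pools for 40 of the 48 genes and above both for 6, where 28.8% and 52.9% of all genes did so. Nup133 fell by 4.16 (SE 0.26), Nup107 fell by 4.13 (SE 0.16) and Tnpo3 fell by 4.04 (SE 0.24), with limma adjusted p-values of 0.00011, 4.9e-05 and 9.2e-05. This comparison uses the arrays of both the full treatment and the non-manipulated embryos again and is no separate support.

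The direction of the smaller differences depended on how the arrays were put on 1 scale. The median of all genes was 0.21 higher in the full treatment than with Trim21 mRNA, and centring each array on its median gave 27 lower and 2 higher transport genes. Quantile normalization and cyclic loess, which force the distributions of the arrays together, each gave 16 lower and 9 higher. Under both, the calls of Kpna4, Kpnb1, Nup155, Nup85, Ranbp1, Rcc1, Seh1l, Xpo5 and Xpo6 were lost, and Nup153, Nup50, Nup88, Nup98, Tnpo1 and Xpo7 were called higher. Nup153 moved to 1.42 and Nup50 to 1.40 after quantile normalization, while Nup107 stayed at −3.15, Kpna2 fell by 1.66 and Kpna7 rose by 3.25. For antibody alone against non-manipulated the counts were 8 lower and 4 higher after quantile normalization, while the full treatment set against antibody alone had 15 lower and 7 higher. For the full treatment against non-manipulated they were 16 lower and 10 higher. The interaction had 6 lower and 2 higher after quantile normalization and 3 lower and 4 higher after loess. The share of all genes called after each scaling was not set beside these counts, so they do not set transport genes apart from the rest.

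**Figure D4:**
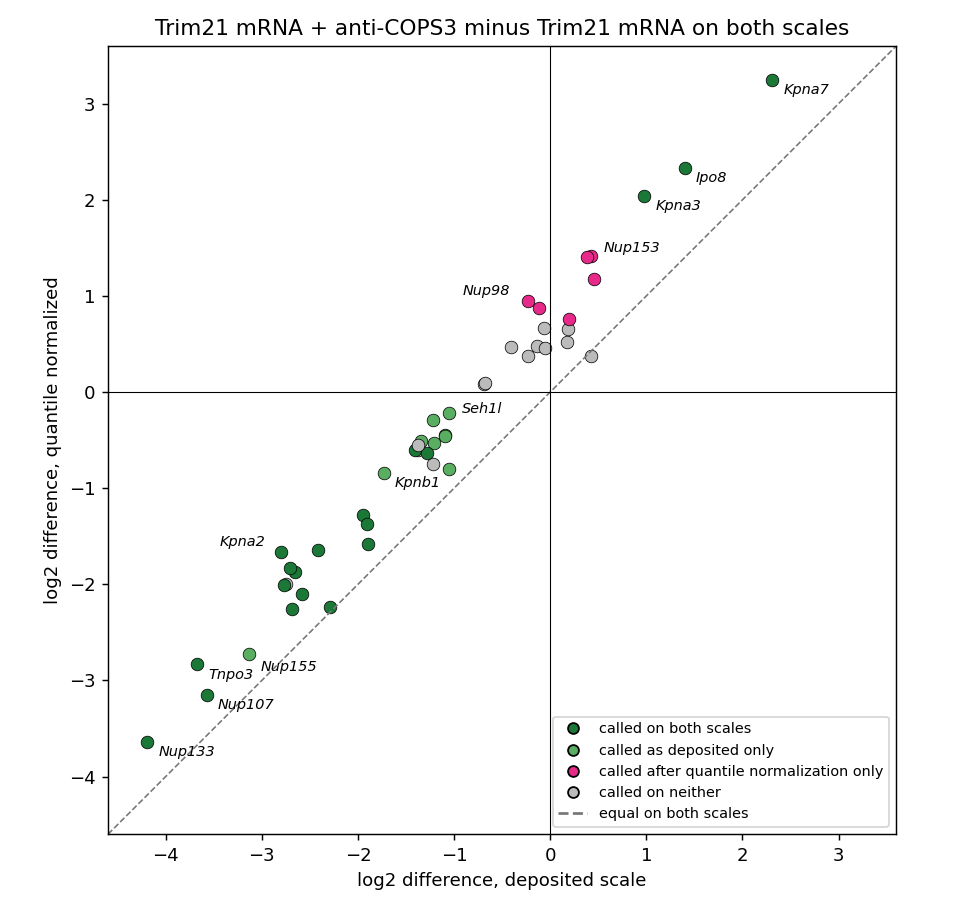
Log2 difference between the full treatment and Trim21 mRNA for each of the 48 genes, on the deposited scale (horizontal axis) and after quantile normalization (vertical axis); the dashed line marks equal values. All but 1 of the points (Nup210) lie above the line: genes with deep losses such as Nup133 stay below 0 on both axes, and Nup153 and Nup98 are called higher only after quantile normalization.

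Of the 28 calls for the full treatment against Trim21 mRNA, 18 held under all 3 scalings and without any 1 array. These were Nup43, Nup93, Nup107, Nup133, Nup160, Nup205, Ranbp2, Kpna1, Kpna2, Kpna7, Ipo4, Ipo5, Ipo8, Tnpo3, Xpo1, Xpot, Ran and Rangap1. The calls of Kpna3, Kpnb1, Nup85, Nup155, Seh1l, Xpo5, Rcc1 and Ranbp1 were lost without at least 1 array, and the count was lowest, at 20, without Trim21 mRNA replicate 1. For the full treatment against antibody alone 13 of 18 calls did so, and against non-manipulated 16 of 28. For antibody alone against non-manipulated 10 of 18 calls held under all 3 scalings and none without every array in turn, and for the interaction 4 of 6 held under all scalings.

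Among all genes the share called lower grew with the level of the gene, and most transport genes lay at levels above 8. Among genes with a mean log2 level of 8 to 10, 39.1% were lower in the full treatment than with Trim21 mRNA, at a median of −0.60, and 11 of the 20 transport genes at that level were lower, at a median of −1.21. At a level of 10 to 12, 45.8% of all genes were lower (median −0.75), as were 9 of 15 transport genes (median −1.38). At 12 to 14, 52.1% of all genes were lower (median −1.05), against 2 of 6 transport genes (median 0.13). For antibody alone against non-manipulated, 7 of 20, 5 of 15 and 1 of 6 transport genes were lower at these 3 levels, where 19.3%, 23.4% and 24.2% of all genes were. For the full treatment against antibody alone, 7 of 20, 6 of 15 and 2 of 6 were lower, where 27.7%, 37.2% and 47.9% of all genes were, so that the transport genes stood near genes of the same level. At levels of 10 to 12 their median there was −0.44, against −0.57 for all genes. The interaction was called lower for 1 of 20, 2 of 15 and 1 of 6 transport genes, where 7.98%, 15.0% and 24.2% of all genes were, which is no more than among genes of the same level.

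Beyond the pore and its receptors, 27 of 35 other genes of nuclear transport were measured, among them mRNA export factors, cap-binding proteins and SUMO enzymes. Of these, 15 fell and 2 rose in the full treatment against Trim21 mRNA, with a median of −0.79, where 14.5% of all genes were lower and 8.72% higher (median 0.21). Most of the list lay at levels of 6 to 12. Of all genes at levels of 6 to 8, 20.9% were lower, with 39.1% at 8 to 10 and 45.8% at 10 to 12. Nmd3, the adaptor that brings the large ribosomal subunit to XPO1, fell by 3.13 (SE 0.23, limma adjusted p = 0.00018), and Ncbp1, the large cap-binding subunit, fell by 3.14 (SE 0.26, limma adjusted p = 0.00028). Thoc5, of the THO complex of mRNA export, fell by 1.85 (SE 0.15, limma adjusted p = 0.00024), and Snupn, the import adaptor of spliceosomal snRNPs, fell by 2.83 (SE 0.24, limma adjusted p = 0.0003). With antibody alone against non-manipulated, 4 fell and 2 rose, at a median of −0.60, where 7.29% of all genes were lower and 2.76% higher. At the 3 levels named above, 11.5%, 19.3% and 23.4% of all genes were lower. Of the called genes with the smallest p, Snupn fell by 1.57 (SE 0.24, limma adjusted p = 0.012) and Ddx19b, an export helicase at the pore, by 0.86 (SE 0.16, limma adjusted p = 0.021). Eny2 rose by 0.88 (SE 0.17, limma adjusted p = 0.024) and Pcid2 by 0.94 (SE 0.18, limma adjusted p = 0.025), both of the TREX-2 export complex.

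Of 14 genes for the nuclear lamina and the inner nuclear membrane, 12 were measured, at levels between 4 and 12. In the full treatment against Trim21 mRNA, 1.24% of all genes at levels of 4 to 6 were lower, and 20.9% at 6 to 8. At 8 to 10 it was 39.1%, and at 10 to 12 it was 45.8%. With antibody alone against non-manipulated these shares were 0.658%, 11.5%, 19.3% and 23.4%. In the full treatment against Trim21 mRNA 5 of the 12 fell, where 14.5% of all genes did, at a median of −0.67: Lemd3 (−3.21, limma adjusted p = 6.9e-05), Sun1 (−2.46, limma adjusted p = 0.00017), Tor1aip1 (−1.99, limma adjusted p = 0.044), Lmna (−0.69, limma adjusted p = 0.016) and Banf1 (−0.65, limma adjusted p = 0.023). With antibody alone against non-manipulated, Lemd3 fell by 2.56 (SE 0.17, limma adjusted p = 0.0018), Lmna, the A-type lamin gene, by 1.19 (SE 0.15, limma adjusted p = 0.0066) and Sun1, which ties the envelope to the cytoskeleton, by 1.04 (SE 0.18, limma adjusted p = 0.017), which is 3 of 12 where 7.29% of all genes fell, and none rose.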

How the data were processed

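RNA of 8 pools of mouse embryos was amplified with the GeneChip WT Pico kit, per the labels' protocols, and hybridised to Affymetrix arrays, 1 array for each pool. The deposited table holds the authors' log2 values for 65956 transcript clusters. They were made with Affymetrix Expression Console, per the submitters' processing notes, and its summarisation and normalization settings are not stated in any source used. Per the file headers each column is 1 array. In the first column the deposited values include 1 other, very large whole number in place of a log2 value, and that cluster was left out, as any value over 100 would be. Array signal gives no count of reads, so the 2 pools of a group limit the precision (median standard error 0.22 for a difference and 0.31 for the interaction).

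The platform annotation named 1 gene for 31257 clusters, several for 1492 and none for 33206, and 1775 clusters had a symbol brought up to date through RefSeq tables. This left 30700 genes, 442 of them on several clusters. Group means were fitted with limma 3.58.1 in R 4.3.3 to the values as deposited for all genes and all 8 arrays, which share 1 estimate of the spread (4 residual degrees of freedom, 6.83 with the prior), and 6 comparisons were tested. P-values are two-sided and Benjamini-Hochberg adjusted over all genes. The steps were tested on simulated data. The genes, lists and alternatives were chosen with earlier results of these data known. Every array's value is given for Kpna2, Kpna7, Kpnb1, Xpo1, Ran, Rcc1 and Rangap1 and, in the main comparisons, for the called gene of each role with the largest rise or fall and no overlap of arrays, or else the gene with the smallest p. Other genes were singled out after their values were seen.

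Alternatives were 3 scalings, a filter on genes with a mean level under 6, averaging the clusters that name 1 gene, a prior fitted with a trend and robustly, the replicate block, leaving out clusters at an array's highest value, only the groups compared, and leaving out each array. The Kpna2 cluster on chromosome 11 was an alternative chosen after seeing the data.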

Additional observations from a re-analysis of the deposited data

Results flagged for a closer look

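For 6 genes the antibody's effect with Trim21 mRNA differed from its effect without it, by limma's interaction test, which called 4.08% of all genes. At levels of 8 to 10, 10 to 12 and 12 to 14, it was lower for 1 of 20, 2 of 15 and 1 of 6 transport genes. Among all genes of these levels 7.98%, 15.0% and 24.2% were lower, so these calls do not set transport genes apart. Among nucleoporins, the difference of effects was −2.23 for Nup107 and −2.33 for Nup133. Among transport receptors it was −2.17 for Kpna2, −2.02 for Xpo1, −1.56 for Ipo5 and 1.58 for Kpna7. Over the alternatives run, the limma adjusted p ranged from 0.0022 to 0.058 for Nup107, from 0.0015 to 0.055 for Kpna2, from 0.0025 to 0.087 for Kpna7, from 0.0068 to 0.1 for Xpo1, from 0.0016 to 0.13 for Nup133 and from 0.0053 to 0.16 for Ipo5. The Trim21 mRNA levels of these genes lay within 0.57 of the non-manipulated levels. Each of the 4 groups had its own day, so day and interaction cannot be told apart. The effect without Trim21 mRNA also includes the injection, as non-manipulated embryos were not injected. No transport gene lay at the highest value of an array, where 169 and 151 clusters of the full-treatment arrays and 136 of antibody-alone replicate 1 did.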

How the results depend on the processing

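For the full treatment against Trim21 mRNA, the 28 calls ranged from 20 to 37 when 1 array was left out, and against non-manipulated embryos the 28 calls ranged from 20 to 37. The 18 calls for antibody alone against non-manipulated became 10 with a trended robust prior, 11 with the replicate block, 0 with only the groups compared and 0 to 34 without 1 array. The 0 calls for Trim21 mRNA against non-manipulated became 3 with only the groups compared and stayed at 0 without any 1 array. The 18 calls for the full treatment against antibody alone became 7 with only the groups compared and ranged from 15 to 31 without 1 array. The 6 interaction calls ranged from 0 to 25 without 1 array (0 without either non-manipulated array, 25 without antibody-alone replicate 2). The share of all genes called in each fit was not set beside these counts, and the cause was not tested. Against non-manipulated embryos, the full treatment's difference for Nup98 was −0.55 as deposited, 0.66 after quantile normalization (limma adjusted p = 0.033) and 0.70 after cyclic loess (0.011), and that for Kpna4 was −0.60, 0.17 and 0.05. Each group had its own day, so same-numbered pools of different groups shared no day. Deviations of these pools from their group means correlated between −0.191 and 0.143 over the 6 pairs of groups. With 2 pools a group, such values cannot show whether same-numbered pools shared anything else. With the replicate block, the full treatment had 26 calls against Trim21 mRNA, 17 against antibody alone and 26 against non-manipulated, and the interaction had 6. The low-level filter, the mean over clusters and leaving out clusters at the highest value kept each count within 1.5 times. A group reduced to 1 array was assumed to vary like the others. With 2 pools a group from 1 day, p-values do not cover variation from day to day, and signal near background limits Nup210 at 5.40 to 6.25.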

Other observations

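Of the 4 listed genes that lay only on clusters shared with another gene, 2 had large differences, given here as values of the shared cluster with no test. The cluster of Ipo7 and Snora23 had 8.11 and 7.53 in the full treatment, 5.34 and 9.68 with antibody alone, 11.56 and 11.43 with Trim21 mRNA, and 11.35 and 11.29 in non-manipulated pools. IPO7 is an importer of ribosomal proteins, and Snora23 is a small nucleolar RNA within its gene. The difference was −3.68 for the full treatment minus Trim21 mRNA and −3.81 for antibody alone minus non-manipulated. The cluster of Ipo11 and Lrrc70 had 8.47 and 8.45 in the full treatment, 10.47 and 10.64 with antibody alone, 11.68 and 11.46 with Trim21 mRNA, and 11.92 and 11.81 in non-manipulated pools, which gave differences of −3.11 and −1.31. The clusters of Nup214 with Mir7674 (0.40 and 0.07) and of Nup62 with Il4i1 (0.28 and 0.05) differed little, and the Nup62 cluster lay near the array medians.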
